A study of Mus musculus with 4 samples.

Results

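The genes described here encode the Groucho/TLE co-repressors of the mouse: Tle1, Tle2, Tle3, Tle4 and Tle6. They are 5 of 25239 gene symbols in the deposited tables. They were taken by symbol, and the family was selected on measured values, since the ratios of Tle2 and Tle6 in the library labelled Isl1CKO brought it forward. Every level and ratio below is therefore a description with no test. All 5 stood on 1 row in each table and all 5 were among the 15049 genes compared, which reached 1 TPM in at least 1 library. TPM, the transcripts of a gene per 1000000 transcripts, is an abundance that allows for gene length.

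Groucho/TLE proteins are co-repressors: they bind no DNA themselves and are brought to genes by transcription factors such as HES and HEY proteins, TCF and LEF factors, RUNX factors and homeodomain proteins. TLE1 to TLE4 share an N-terminal tetramerization domain and a C-terminal WD-repeat domain that holds the partner. TLE5, also called AES, is a short relative that lacks the WD repeats, and TLE6 is a divergent relative that keeps them. In the developing neural tube these co-repressors act with homeodomain factors in the choice of progenitor fates, and in the nervous system they act with HES proteins to restrain neuronal differentiation.

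The tissue was the mouse cochleovestibular ganglion, which holds the first neurons of hearing and balance, taken from embryos on day 11.5. There was 1 library for each genotype label: Isl1CKO, Pou4f1KO, DKO and control. Isl1 and Pou4f1 encode homeodomain transcription factors of sensory neurons, and the labels were read as a conditional knockout, a knockout, and a knockout of both genes. The sources used here do not name the Cre driver, the alleles of the control, the strain or the number of embryos in a library. Pou4f1 was at 187.7 TPM in Isl1CKO, 16.6 TPM in Pou4f1KO, 14.6 TPM in DKO and 145.9 TPM in control. Isl1 was at 854 TPM in Isl1CKO, 340 TPM in Pou4f1KO, 579 TPM in DKO and 450.4 TPM in control, so the level of the whole gene does not go with the labels Isl1CKO and DKO, and it cannot check them if the deleted part is small. These are called the libraries labelled Isl1CKO and DKO, or the Isl1-labelled libraries. All 12 ganglion neuron markers listed were detected in every library, but 5 of the 12 (Pou4f1, Neurog1, Prph, Ntrk2 and Gata3) were at least 2-fold lower in DKO than in control, where the list median was −0.63. Over all 15049 compared genes 352 were lower in DKO than in control, and Pou4f1 is itself a targeted gene. Gata3 stood at 7.39 TPM in Isl1CKO, 49.9 TPM in Pou4f1KO, 9.43 TPM in DKO and 38.5 TPM in control. The Pou4f1KO library stood apart at the adult beta-globin genes, which differ between mouse strains: Hbb-bs was at 0.39 TPM there and at 69.2 to 93.5 TPM in the other libraries, and Hbb-b1 at 70.0 TPM there and at 0.17 to 0.39 TPM in the others. Sequencing depth, inferred from coverage per FPKM, came to 13.6 to 16.6 gigabases per library.

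Tle2 and Tle6 are neighbours. Tle2 lies at chr10:81575287-81590845 on the plus strand (mm10, up to 21 exons in GENCODE M21). Tle6 lies at chr10:81590904-81600900 on the minus strand (up to 14 exons), so the genes point at each other with 58 bases between their annotated 3′ ends. Their annotated exons share 0 bases. Tle5 (chr10:81559444-81566371, plus strand, listed as Aes in GENCODE M21) ends 8915 bases before Tle2 starts. The other members lie apart: Tle1 at chr4:72109945-72200893 on the minus strand, Tle3 at chr9:61372366-61418497 on the plus strand and Tle4 at chr19:14448072-14598183 on the minus strand, each with up to 20 exons.

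The RefSeq windows of 250 bases before to 50 after the start sites (GRCm38.p6, the assembly of mm10) are shown for Tle2, Tle6 and another gene of the locus, Ankrd24, because these are the 3 genes of the locus that stood high together in the Isl1-labelled libraries, as described below. They cover chr10:81575037-81575336 (plus strand), chr10:81600851-81601150 (minus strand) and chr10:81628290-81628589 (plus strand), and each is written on the strand of its gene. Capitals mark matches, on either strand, to the motifs searched.
Tle2: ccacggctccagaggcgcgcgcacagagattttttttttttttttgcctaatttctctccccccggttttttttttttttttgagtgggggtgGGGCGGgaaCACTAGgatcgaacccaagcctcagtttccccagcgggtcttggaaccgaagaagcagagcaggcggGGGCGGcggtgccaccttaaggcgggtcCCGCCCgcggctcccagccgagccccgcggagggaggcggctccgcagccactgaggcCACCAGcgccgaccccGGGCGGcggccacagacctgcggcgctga
Tle6: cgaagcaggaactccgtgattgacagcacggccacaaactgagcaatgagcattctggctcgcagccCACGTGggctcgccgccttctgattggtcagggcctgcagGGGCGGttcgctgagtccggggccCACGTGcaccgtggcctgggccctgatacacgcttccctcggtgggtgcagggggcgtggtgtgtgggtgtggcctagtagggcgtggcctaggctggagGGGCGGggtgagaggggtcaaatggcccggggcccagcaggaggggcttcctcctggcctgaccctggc
Ankrd24: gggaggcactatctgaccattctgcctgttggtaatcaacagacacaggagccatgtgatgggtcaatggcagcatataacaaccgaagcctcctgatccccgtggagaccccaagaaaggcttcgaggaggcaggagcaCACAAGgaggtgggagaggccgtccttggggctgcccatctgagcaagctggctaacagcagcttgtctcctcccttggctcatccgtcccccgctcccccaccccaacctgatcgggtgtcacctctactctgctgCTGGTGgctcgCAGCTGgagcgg

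The 9 motifs searched were TAATTA (homeodomain), ATGCAAAT (POU octamer), ATTAAT (a core of POU4-type sites), CACGTG and CAGCTG (E-boxes), CACNAG (the N-box of HES proteins), TGGGAA (RBPJ), CTTTGA (TCF and LEF) and GGGCGG (SP1 type). The Tle2 window held 4 matches to GGGCGG and 2 to CACNAG, letters present in 35.7% and 42.5% of all 32851 promoter windows. The Tle6 window held 2 matches to CACGTG, which 7.15% of all windows contain, and 2 to GGGCGG. The Ankrd24 window held 2 matches to CACNAG and 1 to CAGCTG, which 16.3% of windows contain. No motif of the 9 was matched in all 3 windows shown. The homeodomain and POU letters were matched in none of these 3. TAATTA, ATGCAAAT and ATTAAT are present in 5.29%, 1.74% and 4.75% of all windows, so nothing is read from that. A second RefSeq window of Ankrd24, not shown, held 2 matches to GGGCGG, 1 to CACNAG and 1 to CAGCTG. The second window of Tle6 held 1 match to CAGCTG and 1 to TGGGAA, and none to CACGTG or GGGCGG. GC content was 64.7% in the Tle2 window, 68.0% in the Tle6 window and 60.0% in the Ankrd24 window, against a median of 52.7% over all windows. Among the other members, the first windows of Tle3 and Tle4 held 1 CACGTG each, and that of Tle4 held 1 ATTAAT, which 4.75% of windows contain. Each of these matches is a description of letters in a window, not of a bound site.

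Tle2, a full-length co-repressor, stood at 47.6 TPM in the library labelled Isl1CKO, 15.3 TPM in Pou4f1KO, 48.1 TPM in the library labelled DKO and 13.97 TPM in control. Both Isl1-labelled libraries lay above both others, and within each pair of libraries the values were close. The library labelled Isl1CKO stood 3.40-fold above control, a log2 ratio of (TPM + 1) of 1.70. The library labelled DKO stood 3.44-fold above control (log2 ratio 1.71) and 3.15-fold above Pou4f1KO (1.59). Between DKO and Isl1CKO the log2 ratio of Tle2 was 0.02, and between Pou4f1KO and control it was 0.12, which became −0.10 after scaling on a list of pan-neuronal genes. The coverage of Tle2 was 213, 79.0 and 251 reads deep in Isl1CKO, Pou4f1KO and DKO and 75.1 in control. With 1 library per genotype no spread between replicates is known, and in bulk tissue more cells that express a gene and more RNA per cell cannot be told apart.

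Tle6, the divergent member, which in mouse also belongs to the subcortical maternal complex of the egg, stood at 12.8 TPM in the library labelled Isl1CKO, 3.10 TPM in Pou4f1KO, 15.3 TPM in the library labelled DKO and 3.33 TPM in control. It showed the same split as Tle2 at a lower level. The library labelled Isl1CKO stood 3.85-fold above control (log2 ratio 1.67). The library labelled DKO stood 4.61-fold above control (1.92) and 4.95-fold above Pou4f1KO (1.99). Between DKO and Isl1CKO the log2 ratio was 0.24, and between Pou4f1KO and control it was −0.08. Tle6 stood at 26.9% of the TPM of Tle2 in Isl1CKO, 20.3% in Pou4f1KO, 31.9% in DKO and 23.8% in control. The libraries were strand-specific, but the sources used here do not say whether the counting used strand, so reads running past the 3′ end of one of these facing genes may count for the other.

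**Figure D1:**
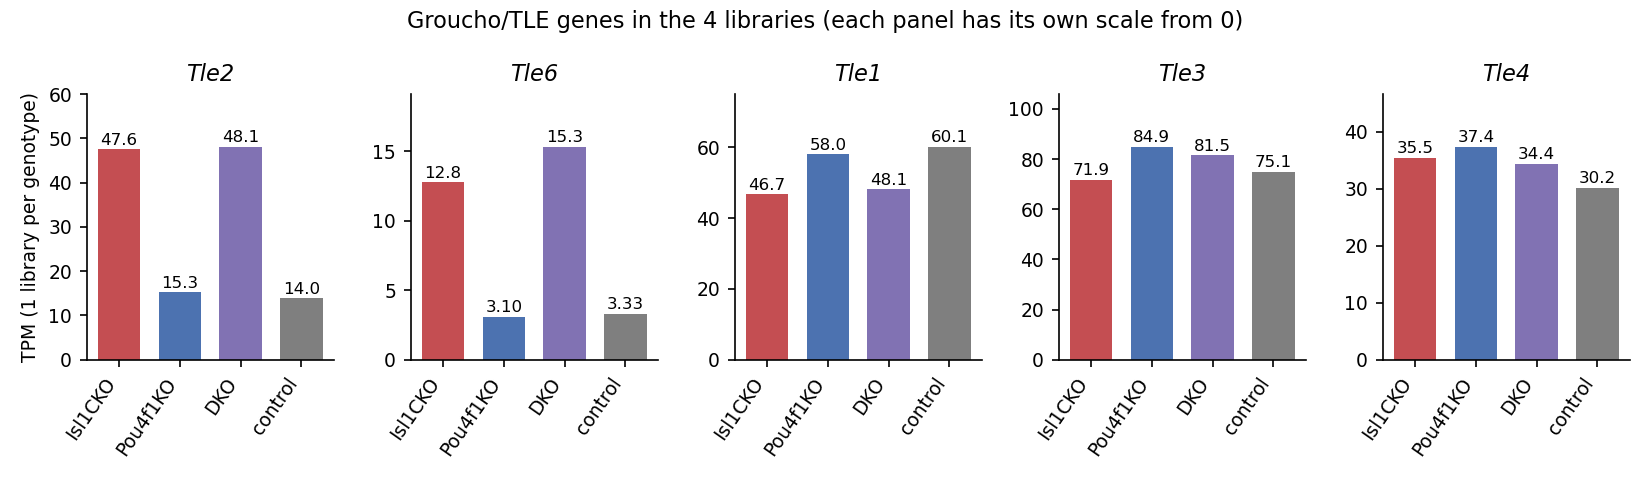
TPM of the 5 genes (y axis, a separate scale from 0 in each panel) in the libraries labelled Isl1CKO, Pou4f1KO and DKO and in control (x axis), with 1 bar per library and no error bars because each genotype has 1 library. Tle2 and Tle6 stand at 47.6 and 12.8 TPM in Isl1CKO and 48.1 and 15.3 TPM in DKO, against 13.97 and 3.33 TPM in control, while the highest bar of Tle1, Tle3 or Tle4 is at most 1.29 times its lowest.

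Of the 5 members, 2 were at least 2-fold higher in the library labelled Isl1CKO than in control and 0 lower, where 1.20% of all compared genes passed 2-fold either way. In Pou4f1KO against control 0 of 5 passed, with 2.70% of all compared genes. In DKO against control 2 of 5 were higher, with 3.35% of all genes past 2-fold. In DKO against Isl1CKO 0 of 5 passed (2.10% of all genes), and in DKO against Pou4f1KO 2 of 5 were higher (1.76%). The 2 members past 2-fold were Tle2 and Tle6 each time. The values of these libraries brought the family forward, so nothing is read from these counts against the percentages. The median log2 ratio of the 5 members was 0.22 for Isl1CKO over control, 0.12 for Pou4f1KO over control and 0.18 for DKO over control, and over all compared genes it was −0.02, 0.02 and −0.01.

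The difference that goes with the Isl1 label can be read from 2 pairs of libraries that have no library in common: Isl1CKO against control, and DKO against Pou4f1KO. The second pair includes the library that stood apart at the beta-globin genes, and the part of strain in its ratios was not tested. The ratios of Isl1CKO and DKO to control do not use that library. In both pairs 27 of 15049 genes (0.179%) were at least 2-fold higher, and Tle2 and Tle6 were among them. Their ratios in the first pair brought the family forward, so nothing is read from this or from their ranks. Ranked from the highest ratio, Tle2 was the number 12 gene and Tle6 the number 15 in the first pair, and Tle2 was number 18 and Tle6 number 8 in the second. Tle1 had log2 ratios of −0.36 and −0.27 in these pairs, Tle3 of −0.06 in each, and Tle4 of 0.22 and −0.12. Scaled on pan-neuronal genes, the ratios in the second pair were 0.18 for Tle3 and 0.11 for Tle4, so their sign depended on the scaling. With the Pou4f1 label the ratios of the 5 members lay between −0.08 (Tle6) and 0.30 (Tle4) in Pou4f1KO against control, and between −0.04 (Tle4) and 0.24 (Tle6) in DKO against Isl1CKO. The departure from additivity, which is the log2 ratio of DKO to control minus the sum of both single-label ratios, was −0.11 for Tle2, 0.32 for Tle6, 0.09 for Tle1, 0.00 for Tle3 and −0.34 for Tle4, with no residual degrees of freedom. Its sign for Tle2 and its size for Tle1, Tle3, Tle4 and Tle6 changed with pan-neuronal scaling, and its sign for Tle1 with coverage per gigabase.

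**Figure D2:**
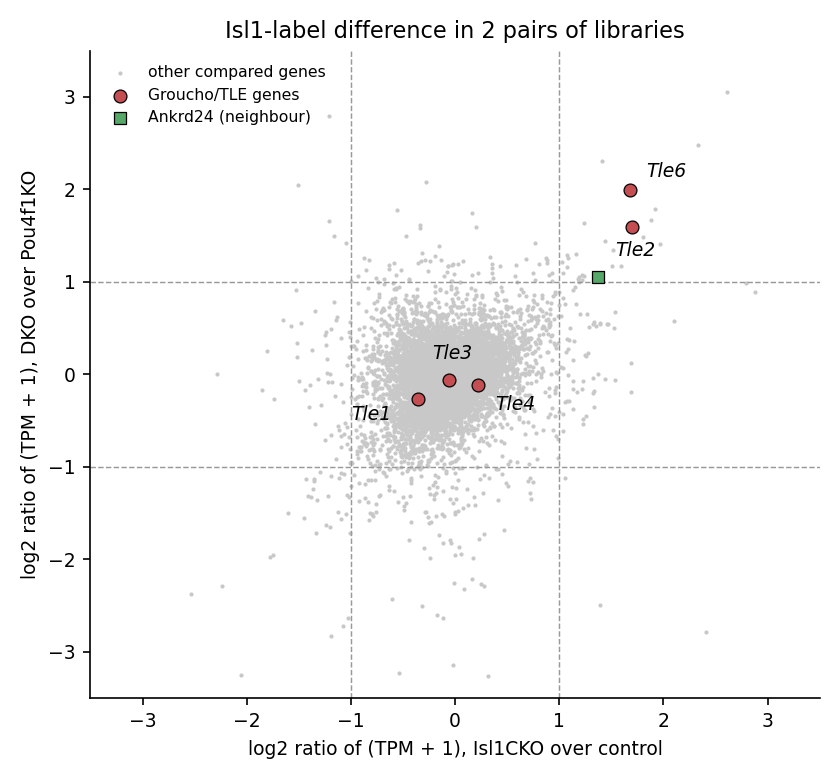
Log2 ratio of (TPM + 1) in Isl1CKO over control (x axis) and in DKO over Pou4f1KO (y axis), 1 grey point per compared gene, with Groucho/TLE genes in red, Ankrd24 as a green square and dashed lines at 2-fold. Tle2 (1.70 and 1.59), Tle6 (1.67 and 1.99) and Ankrd24 (1.37 and 1.05) lie in the upper right field, and Tle1, Tle3 and Tle4 lie inside the dashed lines. The axes leave out 3 genes with larger ratios.

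Tle3, Tle1 and Tle4, the other full-length co-repressors, differed less between libraries. Tle3 stood at 71.9 TPM in Isl1CKO, 84.9 TPM in Pou4f1KO, 81.5 TPM in DKO and 75.1 TPM in control. Tle1 stood at 46.7 TPM in Isl1CKO, 58.0 TPM in Pou4f1KO, 48.1 TPM in DKO and 60.1 TPM in control. Tle4 stood at 35.5 TPM in Isl1CKO, 37.4 TPM in Pou4f1KO, 34.4 TPM in DKO and 30.2 TPM in control. The highest library exceeded the lowest by 1.18 times for Tle3, 1.29 times for Tle1 and 1.24 times for Tle4, compared with 3.44 times for Tle2 and 4.95 times for Tle6. Whether differences of this size exceed the spread between embryos could not be assessed. Tle1 had lower TPM in both Isl1-labelled libraries, but the difference depended on the deposited unit: per gigabase of aligned sequence, the coverage of Tle1 gave log2 ratios of −0.01 for Isl1CKO over control and −0.04 for DKO over control, in place of −0.36 and −0.32. Tle1 had 9.12 units of coverage per FPKM in control, against the value of 16.6 shared by most genes of that library.

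The makeup of the family differed between libraries. In order of TPM, Isl1CKO had Tle3, then Tle2 and Tle1 within 1 TPM of each other, then Tle4 and Tle6. DKO had Tle3, then Tle2 and Tle1 at 48.1 TPM each, then Tle4 and Tle6. Pou4f1KO and control each had Tle3, Tle1, Tle4, Tle2 and Tle6, so the Isl1-labelled libraries had one order and the others another. Tle2 and Tle6 together held 28.2% of the summed TPM of the 5 genes in Isl1CKO, 9.25% in Pou4f1KO and 27.9% in DKO, against 9.47% in control. The sum was 214 TPM in Isl1CKO, 199 TPM in Pou4f1KO, 227 TPM in DKO and 183 TPM in control, and that of Tle1, Tle3 and Tle4 was 154, 180.3 and 164 TPM against 165 TPM in control. Tle5, the short relative, was above the sum of the 5 in every library, at 497 TPM in Isl1CKO, 433 TPM in Pou4f1KO, 511 TPM in DKO and 398 TPM in control (log2 ratios 0.32, 0.12 and 0.36). It stood at 2.32, 2.18 and 2.25 times that sum in Isl1CKO, Pou4f1KO and DKO and 2.18 times in control. A further relative, Tle7, was listed at 0 in all 4 libraries.

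The genes around Tle2 and Tle6 were read from the coordinates in the tables. Within 200 kb on either side there were 21 other genes, of which 18 were compared. In Isl1CKO against control 2 of the 18 were at least 2-fold higher, and in DKO against Pou4f1KO 1 was. Over all 15049 compared genes 88 and 97 were higher in these pairs. The gene higher in both pairs was Ankrd24 (chr10:81628540-81647612, plus strand), which encodes a protein of the stereocilia rootlets of hair cells. Ankrd24 stood at 102 TPM in Isl1CKO, 46.9 TPM in Pou4f1KO, 98.2 TPM in DKO and 39.0 TPM in control, so the same 2 libraries were high. Its log2 ratio was 1.37 in Isl1CKO against control and 1.05 in DKO against Pou4f1KO. The other gene past 2-fold, Gm16104, overlaps Nfic on the opposite strand and stood at 81.8 TPM in Isl1CKO, 9.95 TPM in Pou4f1KO, 15.0 TPM in DKO and 32.0 TPM in control.

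The compared genes between and next to Tle2, Tle6 and Ankrd24 did not reach 2-fold in these pairs. Sirt6, a deacylase gene, starts 931 bases from the start of Ankrd24 and points away from it. It stood at 67.4 TPM in Isl1CKO, 59.1 TPM in Pou4f1KO, 63.0 TPM in DKO and 57.0 TPM in control. BC025920, which lies between Tle6 and Sirt6, had log2 ratios of 0.53 in Isl1CKO against control and 0.06 in DKO against Pou4f1KO. On the other side, Tle5 had ratios of 0.32 and 0.24 in these pairs, and Gna11, a G-protein subunit gene, of 0.04 and 0.16. The median ratio of the 18 neighbours was 0.22 in the first pair and 0.07 in the second. Of the 27 genes higher in both pairs, 5 had another of the 27 within 200 kb, namely Tle2, Tle6 and Ankrd24 and the pair Ak5 and Nexn. Tle2 and Tle6 brought the family forward, and no such share was taken over all genes, so nothing is read from this count. The windows around Tle1, Tle3 and Tle4 held 1, 1 and 2 other genes, of which only the neighbour of Tle1 was compared, and it did not reach 2-fold.

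**Figure D3:**
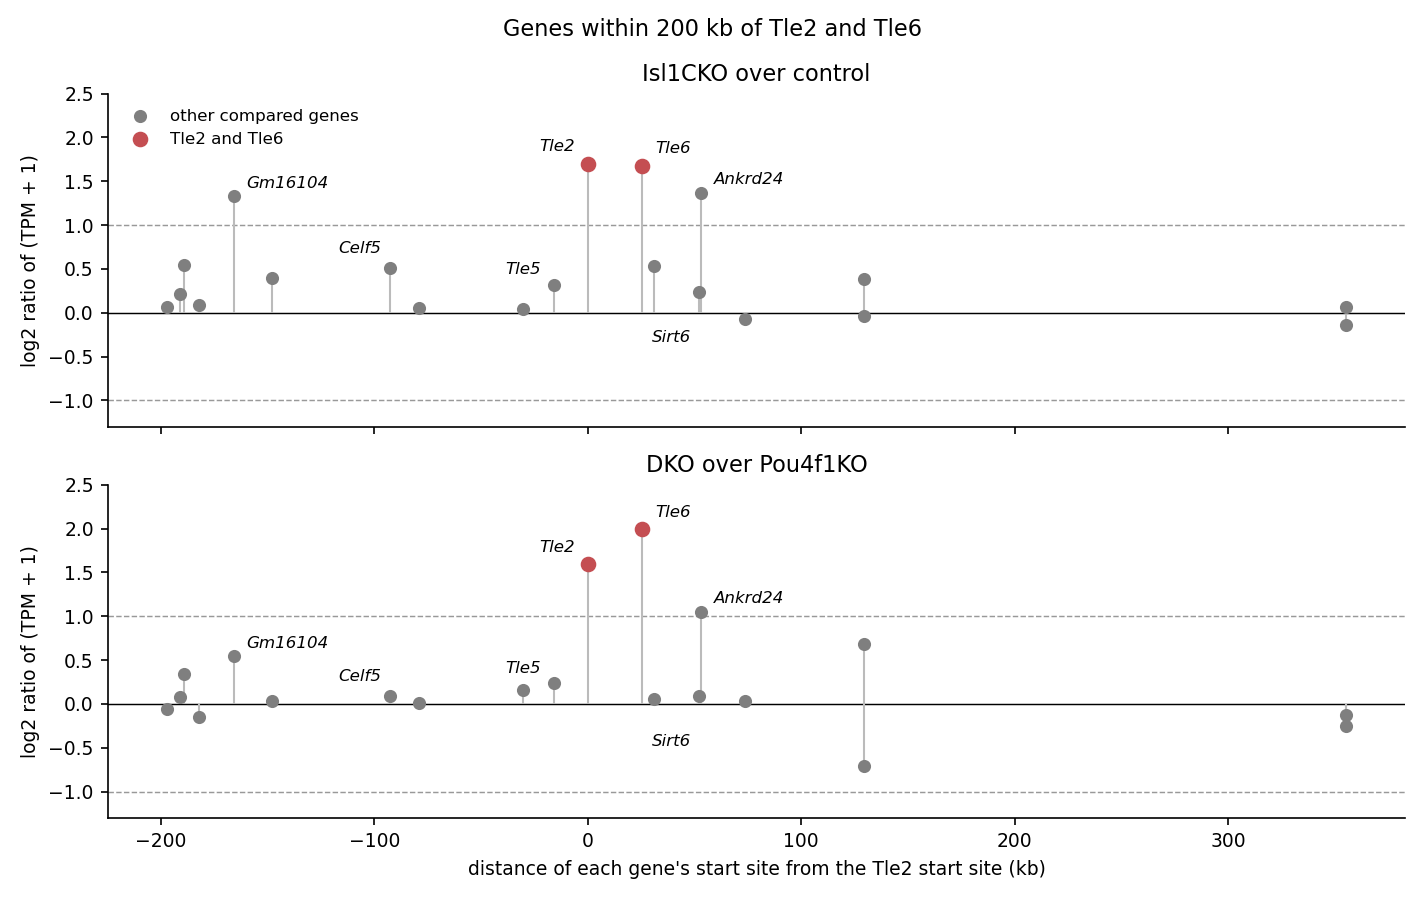
Log2 ratio of (TPM + 1) (y axis) of the compared genes lying at least partly within 200 kb of Tle2 or Tle6, placed by the distance of their start site from that of Tle2 in kb (x axis), for Isl1CKO over control (top) and DKO over Pou4f1KO (bottom), with dashed lines at 2-fold. Tle2, Tle6 and Ankrd24 lie above the upper line in both panels, and Sirt6, which starts beside Ankrd24, and Tle5 lie below it.

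The genes whose pattern was most like each member were found by the distance between log2 ratios to control in the 3 labelled libraries, over 11235 protein-coding genes at 5 TPM or more in some library. The nearest gene to Tle6 was Tle2, at a distance of 0.29, and Tle6 was the number 2 gene for Tle2. These distances use the ratios that brought Tle2 and Tle6 forward, so nothing is read from their nearness to each other. Bhlhe23, a bHLH transcription factor gene, was the nearest to Tle2 (0.18) and the number 2 for Tle6 (0.31). It stood at 28.9 TPM in Isl1CKO, 9.55 TPM in Pou4f1KO, 31.9 TPM in DKO and 8.06 TPM in control. Actc1, the cardiac alpha-actin gene, and Art5, an ADP-ribosyltransferase gene, were near both members, at distances of 0.39 and 0.42 from Tle2. Ankrd24 was the number 5 gene for Tle2 (0.54), and Nexn, an actin-binding protein gene, the number 5 for Tle6 (0.68).

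Tle1, Tle3 and Tle4, with small ratios, had closer neighbours: Arhgap5 (0.02), Dcp2 (0.03) and Lgr4 (0.04) for Tle1, Pfkm (0.01), Lbh and Rnf130 (0.03 each) for Tle3, and Snx21 (0.02), the neuronal intermediate filament gene Ina and Gpank1 (0.03 each) for Tle4. These distances rest on 4 libraries with 1 control in common, and many genes with small ratios lie close to each other.

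A few muscle genes stood high in the same libraries as Tle2 and Tle6. Of 12 muscle markers 5 were compared. In Isl1CKO against control and in DKO against Pou4f1KO 2 of these, Actc1 and Sln (sarcolipin), were at least 2-fold higher. Over all 15049 compared genes 88 and 97 were. Sln passed 1 TPM only in Isl1CKO and DKO, so its place in this count shows nothing beyond the filter. Actc1 stood at 191 TPM in Isl1CKO, 73.1 TPM in Pou4f1KO, 206 TPM in DKO and 53.9 TPM in control. Sln stood at 5.09 TPM in Isl1CKO, 0.09 TPM in Pou4f1KO, 8.06 TPM in DKO and a listed 0 in control. The summed TPM of the 12 was 205 in Isl1CKO, 83.3 in Pou4f1KO and 224 in DKO, against 63.5 in control, and Actc1 made up most of each sum. Tnnt1, Tnnt2 and Des, also compared, had log2 ratios of −0.09, −0.14 and −0.14 in Isl1CKO against control. In DKO against Pou4f1KO they had ratios of 0.13, −0.11 and −0.47. The muscle regulators Myod1, Myog and Myf5 were under 1 TPM in all 4 libraries, and none of the 12 was at 0 in all 4. Their part in the Tle2 and Tle6 values was not tested. The summed TPM of 17 Hox genes was 36.3 in Isl1CKO, 103 in Pou4f1KO and 42.9 in DKO, against 35.7 in control. Of 28 compared neural tube genes 17 were higher and 3 lower in Pou4f1KO against control, but many of them passed the filter only through Pou4f1KO, so these counts show nothing beyond the filter. Epithelial markers differed in another way. In the otic epithelium list 3 of 22 were at least 2-fold lower in Isl1CKO, 15 in Pou4f1KO and 13 in DKO against control. In the surface ectoderm list 0 of 9 were in Isl1CKO and 8 of 9 in each of Pou4f1KO and DKO. Over all 15049 compared genes 93, 260 and 352 were. Below that call, the list medians in Isl1CKO were −0.56 for otic epithelium and −0.75 for surface ectoderm. The summed TPM of the surface ectoderm list was 146 in Isl1CKO, 51.7 in Pou4f1KO and 55.2 in DKO, against 248 in control. Of 15 mesenchyme markers, 0 stood higher and 1 lower in Isl1CKO against control, with a list median of −0.53. Against control, Pou4f1KO had 0 higher and 1 lower (median −0.39), and DKO had 1 and 1 (0.40). The list medians of the Isl1-labelled libraries thus lay on opposite sides of control. DKO against Isl1CKO had 6 higher and 0 lower (median 0.84), and DKO against Pou4f1KO 3 and 0 (0.61). Over all 15049 compared genes 88, 147, 152, 131 and 97 passed upward in these comparisons, and 93, 260, 352, 185 and 168 downward. The part of these tissues in the Tle values was not tested.

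The DNA-binding partners were taken from lists of known partner families. Of 12 HES and HEY genes, 10 were compared. In Isl1CKO against control 0 of 10 passed 2-fold, with a median log2 ratio of −0.26. In Pou4f1KO 1 was higher and 1 lower, and in DKO 1 was lower. Over all compared genes 1.20%, 2.70% and 3.35% passed 2-fold in Isl1CKO, Pou4f1KO and DKO against control. Hes5, a Notch target of neural progenitors, was the higher one, at 2.52 TPM in Isl1CKO, 21.1 TPM in Pou4f1KO, 3.09 TPM in DKO and 4.36 TPM in control. Hes6, a HES relative that promotes neuronal differentiation, was the most abundant partner of this kind, at 321 TPM in Isl1CKO, 256 TPM in Pou4f1KO, 278 TPM in DKO and 258 TPM in control, and it was chosen after its values were seen. The lower one was Helt, at 0.19 TPM in Pou4f1KO and 0.22 TPM in DKO, against 1.79 TPM in control.

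Of the TCF and LEF genes, which act with beta-catenin in Wnt signalling, 0 of 4 passed 2-fold in any of the 5 comparisons. Lef1 stood at 12.7 TPM in Isl1CKO, 15.3 TPM in Pou4f1KO, 18.7 TPM in DKO and 14.9 TPM in control. Of 11 compared Wnt target genes 0 passed 2-fold in Isl1CKO, Pou4f1KO or DKO against control, with medians of −0.24, −0.04 and −0.10. Over all compared genes 1.20% to 3.35% passed in these comparisons, so nothing is read from 0 of 4 or 0 of 11. Among the 8 Notch targets Hes5 alone passed, in Pou4f1KO against control and in DKO against Pou4f1KO (log2 ratios 2.04 and −2.43). In these comparisons 2.70% and 1.76% of all compared genes passed, so nothing is read from 1 of 8. Of 3 compared RUNX genes, Runx1, a factor of nociceptive neurons, was lower in Pou4f1KO and DKO, at 1.92 and 1.06 TPM against 6.08 TPM in control, and stood at 4.27 TPM in Isl1CKO. Against control, 2.70% of all compared genes passed 2-fold in Pou4f1KO and 3.35% in DKO, so nothing is read from 1 of 3. Runx3 and Cbfb did not reach 2-fold, with log2 ratios of 0.99 and −0.63 in DKO against control.

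The homeobox and other partners that carry an eh1-type motif were 25 genes, of which 18 were compared. In Pou4f1KO against control 6 stood at least 2-fold higher and 2 lower, where 2.70% of all compared genes passed, and the list median was 0.58. Dbx1, a factor of the ventral neural tube, was at 3.56 TPM in Pou4f1KO and 0.04 TPM in control, and Nkx6-1, which patterns ventral progenitors, at 1.56 and 0.09 TPM. Of this list, 0 of 18 passed in Isl1CKO against control (1.20% of all compared genes) and 3 did in DKO (3.35%). In DKO Nkx6-1 (2.495 TPM, against 0.09 TPM in control) and Tbx18 (22.3 TPM, against 8.64 TPM in control) were higher and Pax2 (4.48 against 14.4 TPM) was lower. Tbx18 stood at 16.7 TPM in Isl1CKO and 8.78 TPM in Pou4f1KO, so both Isl1-labelled libraries lay above both others. Its log2 ratio in Isl1CKO against control was 0.88, below the call. In DKO against Pou4f1KO Tbx18 was the 1 higher gene of this list, and 4 were lower (1.76% of all compared genes passed). The lower genes reached 1 TPM only in Pou4f1KO, so nothing is read from their count. Dbx1, En1, Foxd3 and Nkx6-1 also stand in the neural tube list, whose summed TPM was 199 in Isl1CKO, 300.3 in Pou4f1KO and 205 in DKO, against 232 in control. Some of them, such as Dbx1, passed 1 TPM only in Pou4f1KO, so the count of higher genes there is not a count over the whole list, and the part of neural tube tissue in it was not tested.

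**Figure D4:**
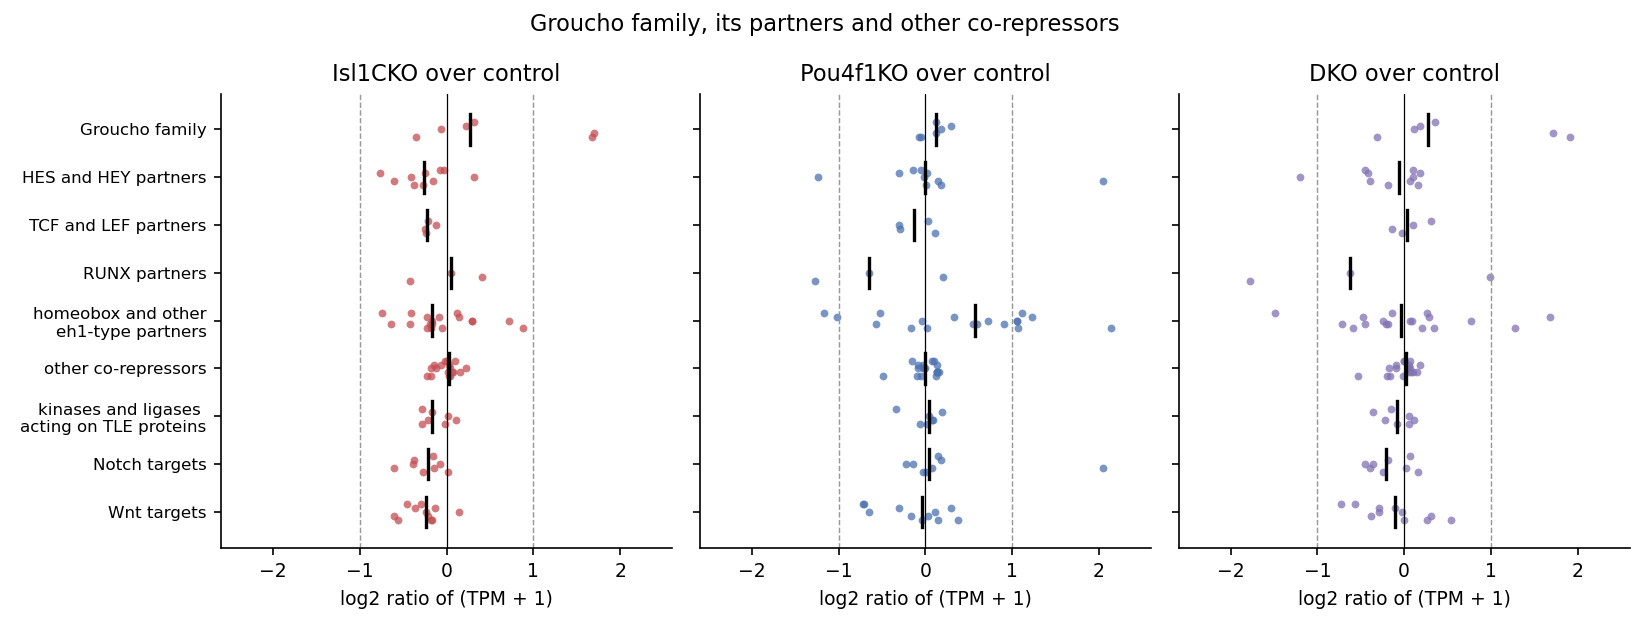
Log2 ratio of (TPM + 1) of each labelled library over control (x axis) for the Groucho family (with Tle5), its DNA-binding partners, other co-repressors, kinases and ligases, and Notch and Wnt targets (rows), with 1 point per compared gene, a black bar at the list median and dashed lines at 2-fold. In Isl1CKO the points past 2-fold are Tle2 and Tle6, and in Pou4f1KO the homeobox list has 6 points above and 2 below.

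In the 2 pairs read for the Isl1 label, the other co-repressors listed all had smaller ratios than Tle2 and Tle6. Of 18 genes of the NCoR, Sin3, CtBP, CoREST and histone deacetylase complexes, 0 passed 2-fold in any of the 5 comparisons, and the list medians lay between −0.01 and 0.03. The largest log2 ratio in size over the 5 comparisons was that of Ctbp2, −0.57 in DKO against Isl1CKO. Ctbp2 stood at 195 TPM in Isl1CKO, 135 TPM in Pou4f1KO, 131 TPM in DKO and 189 TPM in control. In the 2 pairs read for the Isl1 label its ratios were 0.04 and −0.04, and the largest in size were those of Ncor1 (−0.23 and −0.32). Of 7 genes for kinases and ubiquitin ligases that act on TLE proteins, 0 passed 2-fold either. Over all compared genes 1.20% to 3.35% passed in these comparisons, so nothing is read from 0 of 18 or 0 of 7. Hipk2 stood at 24.2 TPM in Isl1CKO, 31.2 TPM in Pou4f1KO, 21.03 TPM in DKO and 27.3 TPM in control. Of the 6 partners of TLE6 in the subcortical maternal complex, Nlrp5, Khdc3 and Nlrp2 were listed at 0 in all 4 libraries and Padi6 was under 1 TPM. Ooep was at 0.47 TPM in Isl1CKO, 1.23 TPM in Pou4f1KO, 1.43 TPM in DKO and 0.26 TPM in control, near the filter of 1 TPM. Zbed3 was at 34.3 TPM in Isl1CKO, 38.4 TPM in Pou4f1KO, 38.8 TPM in DKO and 37.2 TPM in control.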

How the data were processed

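RNA from dissected and frozen ganglia went through Trizol extraction and a directional library kit, per the labels' protocols. The submitters' processing notes name StringTie, SAMtools, HISAT2, FastQC and Trimmomatic, and genome build mm10, without order, version or settings. No source used here names the annotation. The authors deposited TPM, which sums to 1000000 in each library, and FPKM. The deposited coverage is the mean read depth of a gene, not scaled between libraries. No counts were given, so no count test was run, and depth was taken as the coverage per FPKM, a value shared by 57.3% to 57.5% of rows above 0.5 FPKM within a tolerance of 0.001.

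Rows that share a symbol were summed. Ratios are log2 of (TPM + 1) between 2 libraries for genes at 1 TPM in at least 1 library, and 2-fold (log2 ratio of 1) served as the call, without p-values because there is 1 library per genotype. This scale understates differences of low genes. Lists, neighbours within 200 kb, nearest patterns and promoter motifs were described with Python 3.11.15, pandas 2.3.3, GENCODE M21 and RefSeq promoter windows, which matched all 5 members. The RefSeq table has 2 windows for Tle6, Tle4 and Ankrd24, of which the first was used. Alternatives were the pseudocount, the filter, FPKM, 3 other scalings and coverage per gigabase, the last added after the data were seen. The named genes are the members, Tle5, the targeted genes, the 3 or 5 nearest patterns, neighbours within 200 kb, and up to 5 genes per partner list and 2 per marker list by size of ratio. The members and lists were chosen with earlier results of these data known. A planned comparison of protein sequences was not made.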

Additional observations from a re-analysis of the deposited data

Results flagged for a closer look

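Some members had ratios of opposite sign for 1 label in the 2 backgrounds, with 1 library on each side, so these differences were not tested. Tle4 had a log2 ratio of −0.12 in DKO against Pou4f1KO and 0.22 in Isl1CKO against control, and of −0.04 in DKO against Isl1CKO and 0.30 in Pou4f1KO against control; the difference is −0.34 in each case, since it is the same sum of 4 values. With pan-neuronal scaling the ratios of Tle4 in DKO were 0.11 against Pou4f1KO and 0.05 against Isl1CKO, the opposite signs were gone and the difference was −0.02. Tle6 had a ratio of 0.24 in DKO against Isl1CKO and −0.08 in Pou4f1KO against control, a difference of 0.32. Tle1 had a ratio of 0.04 in DKO against Isl1CKO and −0.05 in Pou4f1KO against control, a difference of 0.092, and with coverage per gigabase its ratios were −0.03 and 0.19, a difference of −0.22.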

How the results depend on the processing

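The number of members past 2-fold was the same in all 5 comparisons under 8 other settings of pseudocount, filter, unit and scaling and with coverage per gigabase. Over those 8 settings the log2 ratio of Tle2 lay between 1.47 and 1.76 in Isl1CKO against control and between 1.39 and 1.81 in DKO against Pou4f1KO, and that of Tle6 between 1.10 and 1.91 and between 1.33 and 2.27. A pseudocount of 5 lowered the ratio of Tle6 most, to 1.29 in DKO against control. With Tle5 in the sum, Tle2 and Tle6 held 8.49% in Isl1CKO, 2.91% in Pou4f1KO and 8.59% in DKO, against 2.98% in control. The pan-neuronal scaling factor of Pou4f1KO relative to control was −0.24 on the log2 scale. With it the departure from additivity was 0.21 for Tle2, 0.42 for Tle1, 0.33 for Tle3, 0.58 for Tle6 and −0.02 for Tle4, and coverage per gigabase gave −0.22 for Tle1.

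The number of all genes past 2-fold did depend on the settings. In Isl1CKO against control it was 507 with a pseudocount of 0.1, 36 with 5, 61 with FPKM and 103 with a filter of 5 TPM, in place of 181. In Pou4f1KO against control the values were 792, 118, 209 and 255, in place of 407. In DKO against control they were 948, 178 and 261 for the pseudocounts and FPKM, in place of 504. In DKO against Isl1CKO they were 730, 71 and 133, in place of 316. In DKO against Pou4f1KO they were 616, 65, 111 and, with the filter, 148, in place of 265. No library could be left out and no paired analysis was possible because each genotype has 1 library.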

Other observations

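The 27 genes at least 2-fold higher with the Isl1 label in both pairs of libraries also held genes outside the Groucho family and the locus on chromosome 10. Among them were Chrng, the fetal acetylcholine receptor subunit of muscle, at 24.3 TPM in Isl1CKO, 13.2 TPM in Pou4f1KO, 28.1 TPM in DKO and 10.1 TPM in control, and Atp2a1, a calcium pump of the sarcoplasmic reticulum, at 29.1 TPM in Isl1CKO, 16.1 TPM in Pou4f1KO, 33.5 TPM in DKO and 11.9 TPM in control. Cyp26b1, which degrades retinoic acid, stood at 20.0 TPM in Isl1CKO, 12.3 TPM in Pou4f1KO, 29.0 TPM in DKO and 6.40 TPM in control. In the other direction 32 genes were at least 2-fold lower in both pairs. These genes were picked after their values were seen.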
